A study of Mus musculus with 8 samples.

Results

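End-joining DNA repair genes were examined in 8 RNA-Seq libraries of mouse embryonic stem cells (mESCs). They are 10 genes named by symbol, Xrcc4, Xrcc5, Xrcc6, Lig4, Nhej1, Prkdc, Dclre1c, Parp1, Trp53bp1 and Poll, of 43309 genes in the deposited count table. All 10 were found by Ensembl identifier and all 10 passed the filter on low counts (at least 10 counts in at least 1 library), as did 16816 genes in all. The study prepared libraries from 1000 or 100 lysed mESCs of strain J1 (129SV) without isolating RNA, with the SMARTer Ultra Low RNA Kit v3, which copies polyadenylated RNA into cDNA and amplifies it, here with 10 PCR cycles for 1000 cells (about 10 ng of RNA) and 18 cycles for 100 cells (about 1 ng). The knockout group carried Zbtb24 1lox/1lox, in which both alleles are recombined, and the wild-type group 2lox/+, in which 1 allele is floxed, so the controls carry an engineered allele as well. Cells of both genotypes grew on gelatin, without feeders, in medium with serum. Each of the 4 groups (KO 1000, WT 1000, KO 100 and WT 100) has 2 libraries. The study's design counts separately derived clones as the replicates, and the paper names more clones per genotype than the 2 libraries of each group here. No label ties a library to its clone, so p-values measure the spread between the labelled libraries.

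End joining repairs DNA broken through both strands by ligating the ends directly, without a template. In the classical pathway the Ku heterodimer (Ku70 and Ku80, encoded by Xrcc6 and Xrcc5) binds the ends and recruits the kinase DNA-PKcs (Prkdc), the nuclease Artemis (Dclre1c) trims them, polymerases such as Pol lambda (Poll) fill gaps, and DNA ligase IV (Lig4) seals them with XRCC4 and XLF (Nhej1). PARP1 senses breaks and acts in the alternative route, and 53BP1 (Trp53bp1) shields ends from resection. Lymphocytes need this pathway to rearrange antigen receptor genes and to switch antibody class. ZBTB24 is a zinc finger protein whose loss causes a form of ICF syndrome (immunodeficiency, centromeric instability and facial anomalies).

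The promoters of 5 members are shown first. Xrcc5 and Xrcc6 encode the partners of the Ku dimer, Nhej1, Parp1 and Xrcc5 lie on the same chromosome, and Lig4 had the largest fall at 1000 cells among the 10. Each line reads 5′ to 3′ on the strand of the gene, from 250 bases before the RefSeq start site to 50 after it (RefSeq, GRCm38.p6), with the motifs found on either strand in capitals: the GC box GGGCGG, the CCAAT box CCAAT, the ETS motif CCGGAAG, the NRF1 core GCGCATGC and the E2F motif TTTCCCGC.
Xrcc5, chr1:72307171-72307470, plus strand: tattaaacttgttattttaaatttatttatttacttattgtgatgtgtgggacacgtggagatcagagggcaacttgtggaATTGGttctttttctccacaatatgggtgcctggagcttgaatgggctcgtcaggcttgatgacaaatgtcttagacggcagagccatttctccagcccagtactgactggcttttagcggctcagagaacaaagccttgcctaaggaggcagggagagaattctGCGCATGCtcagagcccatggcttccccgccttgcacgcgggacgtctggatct
Xrcc6, chr15:82016119-82016418, plus strand: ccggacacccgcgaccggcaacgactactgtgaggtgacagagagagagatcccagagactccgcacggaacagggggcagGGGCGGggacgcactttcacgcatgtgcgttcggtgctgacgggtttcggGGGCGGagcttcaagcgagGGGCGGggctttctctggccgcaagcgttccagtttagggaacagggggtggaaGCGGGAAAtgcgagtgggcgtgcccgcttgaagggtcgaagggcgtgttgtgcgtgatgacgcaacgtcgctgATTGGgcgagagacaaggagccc
Lig4, first of its 2 start sites, chr8:9977631-9977930, minus strand: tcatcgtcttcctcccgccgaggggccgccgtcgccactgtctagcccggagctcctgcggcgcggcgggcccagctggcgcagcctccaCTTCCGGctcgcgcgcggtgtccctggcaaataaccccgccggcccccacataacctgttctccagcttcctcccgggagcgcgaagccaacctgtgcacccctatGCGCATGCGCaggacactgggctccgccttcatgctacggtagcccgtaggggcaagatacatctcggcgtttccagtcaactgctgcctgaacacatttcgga
Parp1, chr1:180568641-180568940, plus strand: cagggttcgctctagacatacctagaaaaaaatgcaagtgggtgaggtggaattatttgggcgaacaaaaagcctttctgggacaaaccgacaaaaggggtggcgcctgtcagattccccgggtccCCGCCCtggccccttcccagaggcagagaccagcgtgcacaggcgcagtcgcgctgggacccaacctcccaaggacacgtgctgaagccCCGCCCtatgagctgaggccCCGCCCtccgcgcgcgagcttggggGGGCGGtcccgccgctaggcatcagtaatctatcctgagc
Nhej1, chr1:75125177-75125476, minus strand: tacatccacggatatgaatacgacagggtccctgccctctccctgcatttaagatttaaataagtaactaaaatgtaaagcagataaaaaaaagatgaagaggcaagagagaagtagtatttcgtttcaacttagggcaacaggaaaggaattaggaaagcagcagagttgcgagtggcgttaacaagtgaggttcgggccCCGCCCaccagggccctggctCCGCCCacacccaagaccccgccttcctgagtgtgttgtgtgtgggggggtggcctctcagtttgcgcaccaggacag

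Of the 10 genes, 8 matched the promoter table. The Xrcc5 window held 9 CpG dinucleotides and 48.0% GC, against 30 CpGs and 64.3% GC for its partner Xrcc6, 20 CpGs for Parp1, 10 for Nhej1 and 30 for Lig4. The median of all 32851 promoters in the table was 7 CpGs and 52.7% GC. The Xrcc5 window had an NRF1 core across its start site (bases -4 to 3, the start site being 0), and the Lig4 window had this core on both strands, in overlapping copies that begin at -54 and -52. An NRF1 core stands in 2.71% of all promoters. Parp1 had 4 GC boxes, Xrcc6 3, Nhej1 2 and the other windows shown none, and 35.7% of all promoters have at least 1. The window of the second Lig4 start site, not shown, had GC boxes that begin at -141 and -16, an ETS motif and no NRF1 core. The E2F motif of Xrcc6, on the minus strand at -46 to -39, is found in 1.07% of promoters, the ETS motif of Lig4 in 8.86%, and the CCAAT box, present in Xrcc5 and Xrcc6, in 37.4%. The core CAGGACCT that ZBTB24 is reported to bind was in none of the windows of the 8 matched genes and in 1.99% of all promoters, which says only that these letters are not in these windows. A second E2F form (TTTGGCGC, 0.514% of promoters) and the cyclic AMP element TGACGTCA (1.79%) were searched too and found in no window of these genes. These matches are descriptions of sequence, and binding was not measured.

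Library totals ran from 9666985 to 16686525 counts. The targeted gene did not show the loss its label names: Zbtb24 stood at 14.1 and 16.4 cpm (counts scaled to a common library total with TMM factors) in WT 1000, 19.5 and 20.3 in WT 100, 40.9 and 37.7 in KO 1000, and 39.7 and 37.3 in KO 100. It was higher in both groups labelled KO (log2 ratio 1.37 ± 0.11, adjusted p = 4.33e-11 at 1000 cells, and 0.91 ± 0.13, adjusted p = 0.00111 at 100 cells). A count over the whole gene cannot show a deleted exon, so it does not check the genotype, and every direction given here is that of libraries labelled KO against libraries labelled WT. The 10 pluripotency markers had counts in all libraries, with a summed level of 5905 to 7605 cpm. The KO 100 libraries stood apart: 11 myelin and astrocyte markers summed to 321.5 and 326.8 cpm there against 70.6 to 80.1 in the other 6 libraries, with Mbp at 106 and 103 cpm against at most 2.64 elsewhere. Aqp4 was at 0 in both libraries of WT 1000 and KO 1000. The 10 neuron markers summed to 700.6 to 787.6 cpm in WT, 575.6 to 589.8 in KO 1000 and 757.3 to 782.1 in KO 100, though Snap25 was at 83.7 and 77.2 cpm in KO 100 and at most 3.05 elsewhere. Other marker lists had low sums that were also highest in KO 100. Primitive endoderm markers summed to 6.64 and 7.56 cpm there against at most 3.86 elsewhere, and trophoblast markers to 15.3 and 16.3 against at most 13.8. Fibroblast or feeder markers summed to 5.67 and 5.89 against at most 4.17, and blood markers to 1.12 and 1.66 against at most 0.277. In bulk libraries fewer cells of a type and less RNA per cell cannot be told apart. The part of these transcripts in the KO 100 values below was not tested.

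Per kilobase of exon, Parp1 (mean 85.8 cpm per kb over the 8 libraries, range 60.6 to 130) and Xrcc5 (80.8, range 57.1 to 102) had the highest levels, and their ranges overlapped. Xrcc6 followed at 32.7 cpm per kb (28.8 to 40.3), apart from its neighbours on either side, although its product pairs with that of Xrcc5. Nhej1 stood alone at 14.9 cpm per kb (11.6 to 16.6). The other 6 genes lay between means of 4.54 and 1.87 cpm per kb, in the order Poll, Xrcc4, Lig4, Prkdc, Trp53bp1 and Dclre1c, and each overlapped its neighbours in range. By these counts the transcripts of the 2 Ku subunits were more abundant per length than those of every ligase complex member in each library. The same held for cpm without division by length. The rest of the order depends on that division. The paper reports that SMARTer coverage was biased toward the 3′ end, and the part of this in the order was not tested. By cpm alone, the medians of Prkdc (37.0) and Trp53bp1 (30.9) exceeded those of Nhej1 (17.1), Xrcc4 (16.6), Lig4 (15.3) and Poll (8.8). In GENCODE M21 the exon models of Trp53bp1 (15.04% shared with Tubgcp4 on the other strand), Xrcc6 (7.69%, Desi1), Dclre1c (3.83%, Suv39h2) and Xrcc4 (2.66%, Tmem167) overlap a neighbour. The counting ignored strand and discarded fragments shared by 2 genes, which leaves such stretches out. It used an earlier GENCODE release, and whether these stretches are shared in that release was not checked.

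**Figure D1:**
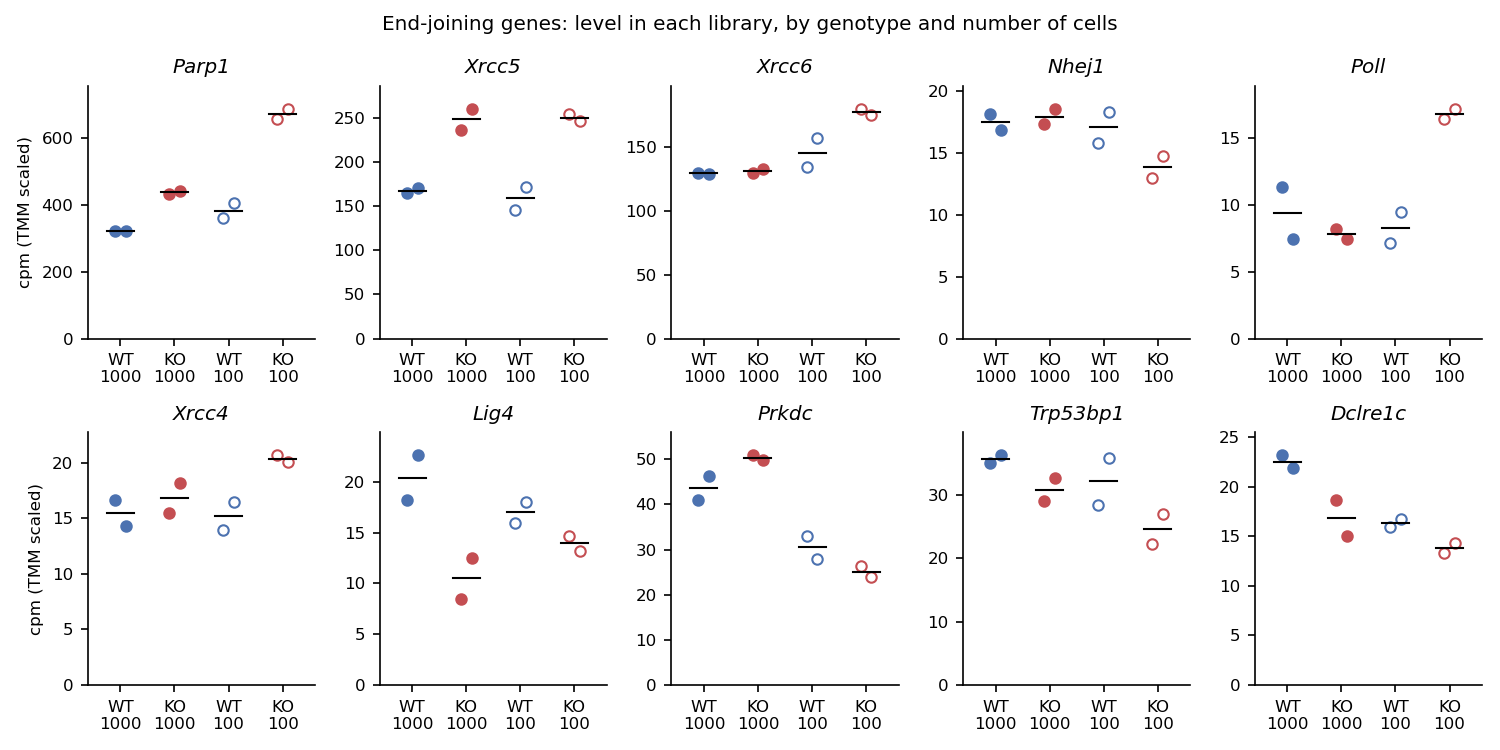
Level of each end-joining gene in each library (y axis, TMM-scaled cpm, from 0) by genotype and number of cells (x axis), with points for the 2 libraries of a group and a line for their mean. Xrcc5 and Parp1 were higher in both KO groups than in the WT group of the same input, while Poll was raised only in KO 100, at 16.4 and 17.2 cpm against 7.12 to 11.3 in the other 6 libraries.

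The first comparison asked how the end-joining genes differed between the genotypes at 1000 cells. At this input 4 of the 10 passed the test (adjusted p of at most 0.05, edgeR quasi-likelihood test Benjamini-Hochberg adjusted across every gene tested): Xrcc5 and Parp1 were higher in KO, and Lig4 and Dclre1c were lower. Of all tested genes 41.5% passed, 20.9% higher and 20.6% lower, so the share among the 10 was near that of the transcriptome. When libraries were scaled by total counts alone, the split of all calls moved from 3514 higher and 3465 lower to 2776 higher and 4290 lower. At 100 cells 3 of the 10 passed, Xrcc5, Parp1 and Poll, all higher in KO, and none was lower, against 34.2% of all tested genes (17.6% higher and 16.6% lower). The median log2 ratio over the 10 genes was 0.03 at 1000 cells and -0.02 at 100 cells, and over all tested genes it was -0.00 at both inputs. The count at 100 cells rose without either WT 100 library and fell without either KO 100 library, as did the calls over all tested genes. When a library is left out, its group keeps 1 library and the spread is taken from the rest. Whether a gene passes then does not weigh the spread of that group, and this holds wherever a library is left out below.

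Xrcc5 (chr1:72307421-72394952) encodes Ku80. Its level was 164.7 and 170.3 cpm in WT 1000 against 236.7 and 260.4 cpm in KO 1000, and the groups did not overlap. At 100 cells it was 146.0 and 172.3 cpm in WT against 254.5 and 246.6 cpm in KO, again without overlap. The ratio was 1.49-fold at 1000 cells (log2 0.57 ± 0.06 SE, adjusted p = 2.71e-08) and 1.53-fold at 100 cells (log2 0.61 ± 0.11, adjusted p = 0.00324). The call at 1000 cells held in all 13 alternatives. That at 100 cells was lost without KO 100 replicate 1 or replicate 2, though the log2 ratio was then 0.59 and 0.63.

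Xrcc6 (chr15:81987835-82040085) encodes Ku70, the obligate partner of Ku80. Its level at 1000 cells was 130.1 and 129.0 cpm in WT against 129.9 and 133.3 cpm in KO, with overlapping groups, and the log2 ratio was 0.02 ± 0.07 (adjusted p = 0.816). At 100 cells it was 134.3 and 157.6 cpm in WT against 180.2 and 175.4 cpm in KO, which did not overlap, but the log2 ratio of 0.24 ± 0.11 did not pass the test (adjusted p = 0.119). It passed in 1 fit of all 8 libraries (log2 0.28, adjusted p = 0.0216). Without WT 100 replicate 1 the log2 ratio was 0.14, and without WT 100 replicate 2 it was 0.37. The direction at 1000 cells turned when libraries were scaled by total counts alone (log2 -0.06). With each input fitted on its own libraries, Xrcc5 passed the genotype test at both inputs and Xrcc6 at neither, and the difference between their ratios was not tested.

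Prkdc (chr16:15637866-15842235) encodes the catalytic subunit of the DNA-dependent protein kinase. At 1000 cells it stood at 41.0 and 46.2 cpm in WT against 50.8 and 49.8 cpm in KO, and at 100 cells at 33.0 and 27.9 cpm in WT against 26.3 and 23.96 cpm in KO, so KO lay above WT at 1000 cells and below it at 100 cells, with no overlap at either. Neither ratio passed the test (log2 0.21 ± 0.09, adjusted p = 0.0567 at 1000 cells, and log2 -0.32 ± 0.15, adjusted p = 0.117 at 100 cells). The first passed with the replicate number as a block (adjusted p = 0.0277) and was 0.30 without WT 1000 replicate 2. The second was -0.43 without WT 100 replicate 2. The test of the change in ratio between inputs gave -0.48 ± 0.17 on the log2 scale (adjusted p = 0.0606). It passed with a crossed replicate block (adjusted p = 0.0438), in which the numbers of the 100 cell libraries are swapped, an alternative added after seeing the data.

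Dclre1c (chr2:3424131-3464130) encodes Artemis, the nuclease that opens hairpin ends. Its level was 23.2 and 21.9 cpm in WT 1000 against 18.6 and 15.02 cpm in KO 1000, with no overlap and a log2 ratio of -0.43 ± 0.12 (adjusted p = 0.00572). This call was lost with DESeq2's own test (adjusted p = 0.0561) and without KO 1000 replicate 2 (log2 -0.27). At 100 cells it was 15.9 and 16.8 cpm in WT against 13.4 and 14.3 cpm in KO, in the same order. The log2 ratio of -0.29 ± 0.16 did not pass (adjusted p = 0.192), and it was -0.31 without WT 100 replicate 1.

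Of the 3 genes of the ligase complex, Lig4 passed the genotype test at 1000 cells and the other two passed at neither input. Lig4 (chr8:9969049-9977686) encodes DNA ligase IV, the enzyme of the final step. It was at 18.2 and 22.6 cpm in WT 1000 against 8.47 and 12.5 cpm in KO 1000, and it fell to 0.522 of the WT level (log2 -0.94 ± 0.15, adjusted p = 1.13e-05), a call held in all 13 alternatives. At 100 cells the 2 WT libraries were at 15.9 and 18.0 cpm and the 2 KO libraries at 14.6 and 13.2 cpm. The order was the same, with no overlap, but the log2 ratio was -0.33 ± 0.16 and did not pass (adjusted p = 0.141). It was -0.41 without WT 100 replicate 1. The test of the change in ratio between inputs gave 0.65 ± 0.26 (adjusted p = 0.092). It passed with every gene of at least 1 count (0.67, adjusted p = 0.0432), and the change was 0.74 without WT 100 replicate 2.

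Xrcc4 (chr13:89774027-90089608) encodes the scaffold that binds and stabilises ligase IV. Its level was 16.7 and 14.3 cpm in WT 1000 against 15.5 and 18.2 cpm in KO 1000, which overlapped, with a log2 ratio of 0.11 ± 0.13 (adjusted p = 0.524). At 100 cells it was 13.9 and 16.4 cpm in WT against 20.7 and 20.1 cpm in KO. These did not overlap, and the log2 ratio of 0.38 ± 0.16 did not pass (adjusted p = 0.0902). It passed in 1 fit of all 8 libraries (adjusted p = 0.0326), and it was 0.51 without WT 100 replicate 2.

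Nhej1 (chr1:74967139-75125200) encodes XLF, which aligns ends beside XRCC4. It was at 18.2 and 16.9 cpm in WT 1000 against 17.3 and 18.6 cpm in KO 1000, with overlapping groups and a log2 ratio of 0.03 ± 0.12 (adjusted p = 0.864). At 100 cells WT was at 15.8 and 18.3 cpm and KO at 12.98 and 14.7 cpm. The 2 groups did not overlap, the log2 ratio was -0.35 ± 0.17, and it did not pass (adjusted p = 0.135). Without WT 100 replicate 1 it was -0.44. Scaled by total counts alone, the ratio at 1000 cells turned to -0.05.

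Poll (chr19:45552275-45560531) encodes DNA polymerase lambda, which fills short gaps at aligned ends. At 1000 cells it stood at 11.3 and 7.45 cpm in WT against 8.16 and 7.41 cpm in KO, with overlap and a log2 ratio of -0.30 ± 0.19 (adjusted p = 0.207). At 100 cells it was 7.12 and 9.43 cpm in WT against 16.4 and 17.2 cpm in KO, 1.95-fold higher (log2 0.97 ± 0.19, adjusted p = 0.00452). Poll was the only member whose genotype ratio differed between the inputs by the test of that difference (log2 1.30 ± 0.29, adjusted p = 0.00919), against 16.3% of all tested genes. The difference did not pass without WT 1000 replicate 1 (0.94), KO 1000 replicate 2 (1.23) or KO 100 replicate 2 (1.27). Without KO 100 replicate 2 the ratio at 100 cells did not pass either. The log2 ratio at 1000 cells was -0.55 without WT 1000 replicate 2 and turned to 0.06 without WT 1000 replicate 1. Poll had the lowest cpm of the 10 in 3 of the 4 groups, and its rise was confined to the 2 libraries with raised myelin and astrocyte markers.

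Parp1 (chr1:180568924-180601254) encodes the enzyme that marks DNA breaks with poly(ADP-ribose). The 1000 cell libraries held 320.7 and 321.7 cpm when labelled WT but 433.5 and 442.0 when labelled KO. Among the 100 cell libraries WT held 361.9 and 405.2 cpm but KO 658.5 and 687.8, so KO lay above WT at each input without overlap. The ratio was 1.36-fold at 1000 cells (log2 0.45 ± 0.06, adjusted p = 2.62e-07) and 1.7-fold at 100 cells (log2 0.77 ± 0.11, adjusted p = 0.000978). Both calls held in all 13 alternatives of each input, which no other member's did. The difference between the ratios was 0.36 ± 0.12 on the log2 scale (adjusted p = 0.0524). It passed in 7 of 16 alternatives, among them those without WT 100 replicate 1 and without WT 100 replicate 2.

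Trp53bp1 (chr2:121193281-121271407) encodes 53BP1, the reader of marked chromatin beside breaks. At 1000 cells it was at 35.0 and 36.2 cpm in WT against 29.1 and 32.7 cpm in KO, and at 100 cells at 28.5 and 35.8 cpm in WT against 22.2 and 27.0 cpm in KO. The KO libraries lay below the WT libraries of the same input throughout, but neither ratio passed (log2 -0.20 ± 0.10, adjusted p = 0.102, and log2 -0.43 ± 0.16, adjusted p = 0.0636). The ratio at 100 cells passed by edgeR's exact test (adjusted p = 0.0473), in 1 fit of all 8 libraries (adjusted p = 0.0319) and with the replicate number as a block (adjusted p = 0.024). It was -0.58 without WT 100 replicate 1. The ratio at 1000 cells passed when scaled by total counts alone (adjusted p = 0.0188).

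**Figure D2:**
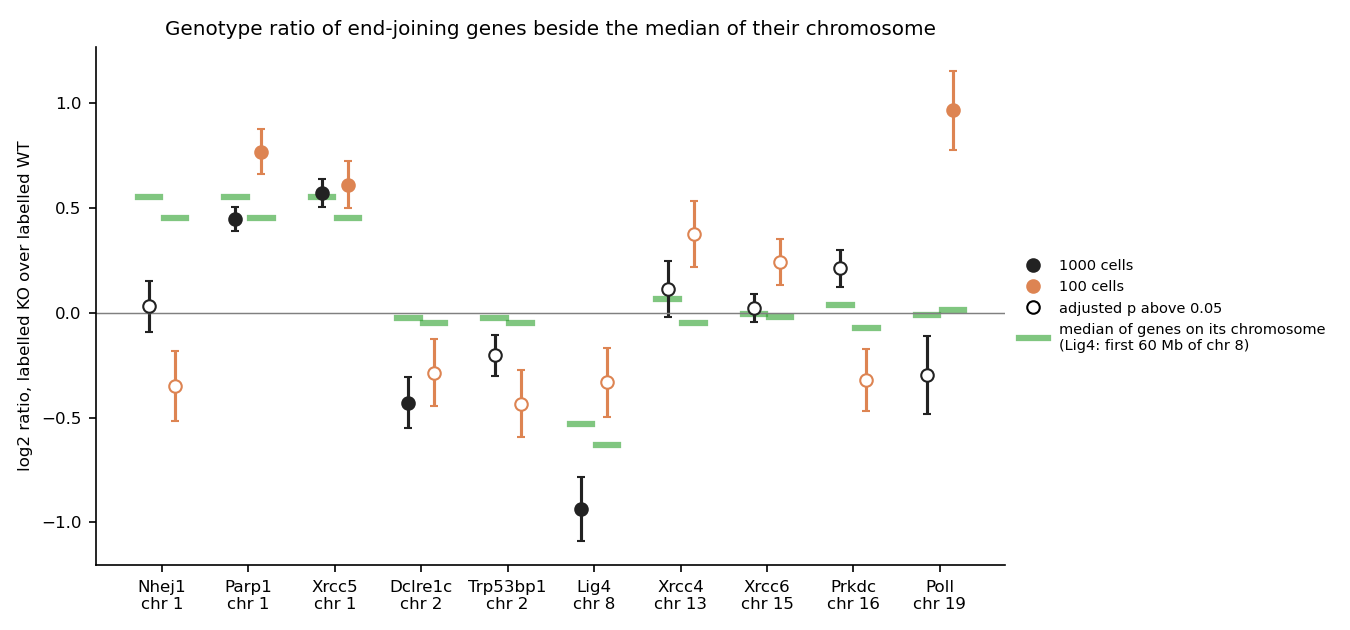
Log2 ratio of labelled KO over labelled WT (y axis) for each end-joining gene, ordered by chromosome (x axis), at 1000 and 100 cells, with bars of 1 standard error and filled points where the adjusted p was at most 0.05. Green bars give the median of the genes on the same chromosome, which was 0.55 and 0.45 on chromosome 1, where Xrcc5, and Parp1 at 1000 cells, lie near it and Nhej1 lies below it.

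Xrcc5, Parp1, Nhej1 and Lig4 lie where whole chromosomal stretches differed between the genotypes. On chromosome 1 the median log2 ratio of genes averaging 10 cpm or more was 0.55 at 1000 cells (501 genes, 78.8% called higher) and 0.45 at 100 cells (55.9% called higher). The medians of 18 other chromosomes (the autosomes other than 1 and 8, and X) ran from -0.06 to 0.10 at 1000 cells and from -0.14 to 0.01 at 100 cells. Xrcc5 differed from the chromosome 1 median by 0.02 at 1000 cells and 0.16 at 100 cells, and Parp1 by -0.10 and 0.32. Nhej1 lies on the same chromosome, nearer to Xrcc5 than to Parp1. It was 0.52 below the median at 1000 cells, with 11.4% of the chromosome's genes lower still, and 0.80 below it at 100 cells, with 4.79% lower. Chromosome 1 held 8.58% to 9.87% of all counts in the WT libraries and 10.6% to 12.4% in the KO libraries. The number of copies of this chromosome was not measured.

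In the first 60 Mb of chromosome 8, where Lig4 lies, the median log2 ratio was -0.53 at 1000 cells (140 genes, 86.4% called lower) and -0.63 at 100 cells (75.7% called lower), against -0.08 and -0.09 in the rest of that chromosome. The end at 60 Mb was a fixed setting, and no other end was tried, so this contrast depends on that choice. Lig4 was 0.41 below the median of its region at 1000 cells, where 15% of the region's genes were lower, and 0.30 above it at 100 cells. This region held 1.54% to 1.64% of counts in WT and 1.01% to 1.05% in KO. The other members lie on chromosomes whose medians were near 0. Poll at 100 cells was 0.95 above the median of chromosome 19 and higher than 95.7% of its genes. Dclre1c at 1000 cells was 0.40 below the median of chromosome 2, with 17.6% of that chromosome's genes lower.

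**Figure D3:**
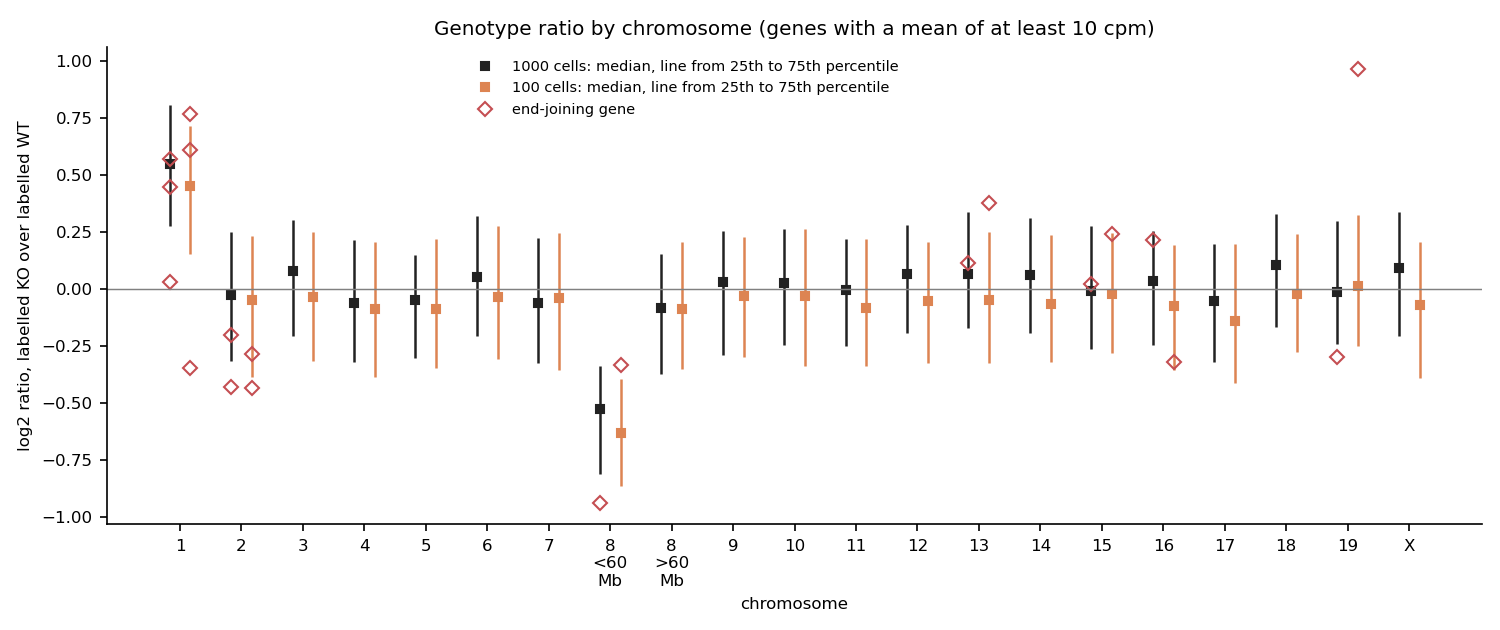
Median log2 ratio of labelled KO over labelled WT per chromosome (squares, with lines from the 25th to the 75th percentile; y axis) at 1000 and 100 cells, for genes averaging 10 cpm or more, and the end-joining genes as open diamonds. Chromosome 1 stands above and the first 60 Mb of chromosome 8 below the other chromosomes at both inputs, and Nhej1 is the diamond below the percentile line of chromosome 1.

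The second comparison asked how the same genes differed between 100 and 1000 cells within a genotype. In WT none of the 10 passed the edgeR quasi-likelihood test, against 0.827% of all tested genes, and DESeq2 and edgeR's exact test also called 0. By the quasi-likelihood test 2 of the 10 (Prkdc and Dclre1c) had an unadjusted p under 0.05, as did 2054 of all 16816 tested genes. The number passing in WT rose without either WT 100 library, as did the calls over all tested genes. In KO 8 of the 10 passed, against 52.1% of all tested genes. Of the 10, 5 were higher at 100 cells (Xrcc4, Xrcc6, Lig4, Parp1 and Poll, against 27.3% of all genes) and 3 lower (Nhej1, Prkdc and Trp53bp1, against 24.8%). Without KO 100 replicate 1 the count was 4. The median log2 ratio of the 10 was -0.12 in WT and 0.14 in KO. The edgeR quasi-likelihood test of the change in genotype ratio between inputs also tests whether the input ratio differs between genotypes. It passed for Poll alone (adjusted p = 0.00919), with adjusted p from 0.0524 (Parp1) to 0.713 (Xrcc5) for the other 9. For those 9, passing in KO and not in WT does not show a difference between genotypes. The comparison in KO involves the 2 libraries with myelin and astrocyte markers, whose part in these values was not tested.

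Prkdc fell most. The 2 libraries of KO 100 were at 26.3 and 23.96 cpm against 50.8 and 49.8 cpm in KO 1000, a ratio of 0.5 (log2 -0.999 ± 0.09, adjusted p = 1.01e-11). In WT its level of 33.0 and 27.9 cpm at 100 cells lay below the 41.0 and 46.2 cpm at 1000 cells, with no overlap, and the log2 ratio of -0.53 ± 0.16 did not pass (adjusted p = 0.126). It passed in 1 fit of all 8 libraries (adjusted p = 0.0227) and with a crossed replicate block (adjusted p = 0.0331). Without WT 100 replicate 1 it was -0.67, and without WT 100 replicate 2 it was -0.38. Prkdc has the longest transcript of the 10, and genes in the top quintile of transcript length had a median log2 ratio of -0.13 in WT and -0.15 in KO. Trp53bp1 and Dclre1c are in that quintile too, and the part of transcript length in these values was not tested.

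Poll rose most, from 8.16 and 7.41 cpm in KO 1000 to 16.4 and 17.2 cpm in KO 100, 2.16-fold (log2 1.11 ± 0.14, adjusted p = 2.19e-08), whereas in WT the log2 ratio was -0.20 ± 0.25 (adjusted p = 0.806). Parp1 rose 1.54-fold in KO (log2 0.62 ± 0.05, adjusted p = 1.36e-12), with 0.24 ± 0.11 in WT (adjusted p = 0.41), which was 0.30 without WT 100 replicate 1. Xrcc6 rose 1.35-fold in KO (log2 0.44 ± 0.06, adjusted p = 8.94e-08), with 0.16 ± 0.12 in WT (adjusted p = 0.661), which was 0.25 without WT 100 replicate 1. Its Ku partner Xrcc5 did not pass in either genotype (log2 0.01 ± 0.05 in KO, adjusted p = 0.847, and -0.09 ± 0.12 in WT, adjusted p = 0.824). The calls of Prkdc, Poll, Parp1 and Xrcc6 in KO held in all 14 alternatives.

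The other 4 calls in KO were smaller and were lost under several alternatives. Lig4 rose by a log2 ratio of 0.40 ± 0.15 (adjusted p = 0.0221) and Xrcc4 by 0.28 ± 0.11 (adjusted p = 0.0409), while Nhej1 fell by 0.37 ± 0.12 on the log2 scale (adjusted p = 0.0101) and Trp53bp1 by 0.33 ± 0.10 (adjusted p = 0.00709). All 4 calls were lost with DESeq2's own test (adjusted p = 0.181, 0.244, 0.12 and 0.0899 in that order) and in 1 fit of all 8 libraries (adjusted p = 0.107, 0.153, 0.0515 and 0.0747). They were also lost without KO 100 replicate 1, with log2 ratios of 0.33, 0.26, -0.28 and -0.19 in the same order. With every gene of at least 1 count those of Lig4 and Xrcc4 were lost (adjusted p = 0.109 for each), and that of Xrcc4 also with total counts alone (adjusted p = 0.0517) and after thinning (adjusted p = 0.0558). Without KO 1000 replicate 1 those of Lig4 (log2 0.16) and Xrcc4 (log2 0.17) were lost. The same held for Trp53bp1 without KO 1000 replicate 2 (log2 -0.24) and for Xrcc4 without KO 100 replicate 2 (log2 0.30). Dclre1c did not pass in KO (log2 -0.28 ± 0.13, adjusted p = 0.0669) or in WT (log2 -0.48 ± 0.17, adjusted p = 0.225). Its log2 ratio in KO was -0.43 without KO 1000 replicate 2. In WT it was -0.47 without WT 100 replicate 1 and -0.49 without WT 100 replicate 2.

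Over the 8344 genes averaging 10 cpm or more with a known transcript, the input ratio moved with transcript GC content, and its part in the values of the members was not tested beyond the median of their GC quintile. In KO the medians of the 5 quintiles, from low to high GC, were -0.24, -0.13, -0.01, 0.07 and 0.28 on the log2 scale, and in WT they ran from -0.08 to 0.13. Poll, with 58.1% GC, is in the highest quintile and stood 0.83 above its median. Prkdc, with 43.3% GC, is in the second and stood 0.87 below. Lig4 and Xrcc4 are in the lowest quintile and stood 0.64 and 0.52 above its median, whereas Dclre1c in the same quintile differed from it by -0.03. Parp1 and Xrcc6 stood 0.55 and 0.37 above the median of the fourth quintile, and Nhej1 0.44 below the same median. Trp53bp1 lay 0.31 below that of the third, and Xrcc5 0.15 above that of the second. Between genotypes at 1000 cells the quintile medians fell from 0.14 at low GC to -0.17 at high GC. At 100 cells they ran from -0.06 to -0.02. The part of GC content in the genotype ratios of the members was not tested.

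**Figure D4:**
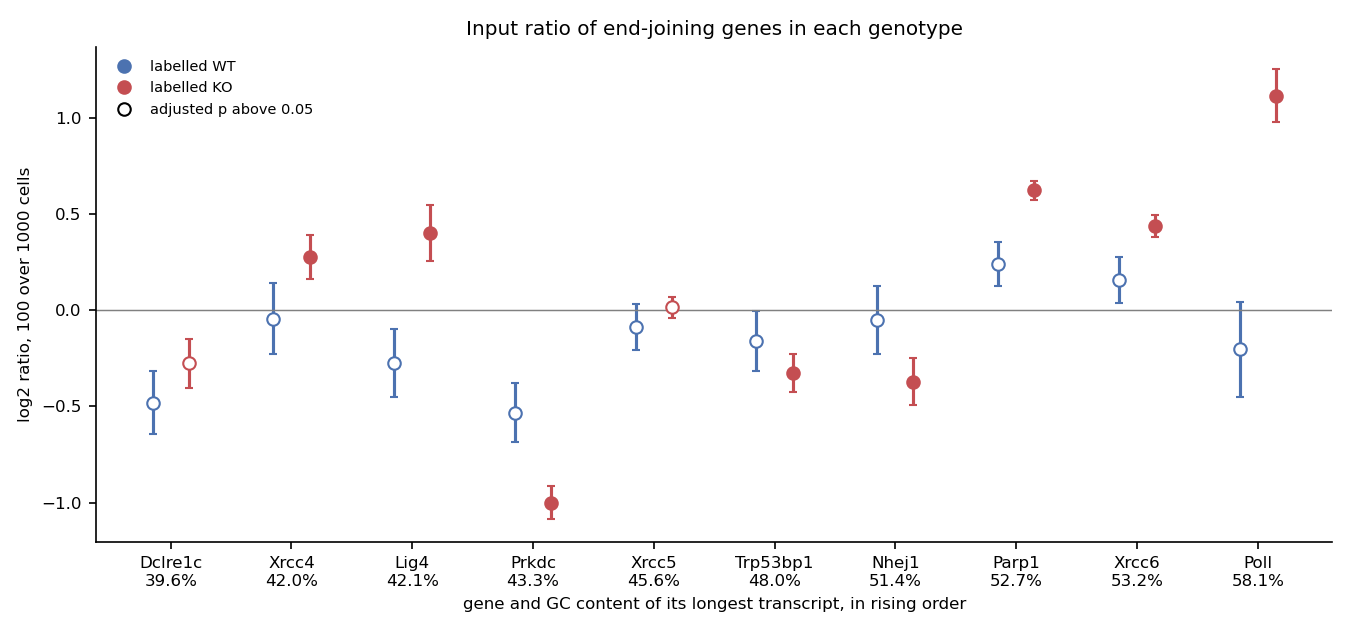
Log2 ratio of 100 over 1000 cells (y axis) in labelled WT and labelled KO for each end-joining gene, ordered by the GC content of its longest transcript (x axis), with bars of 1 standard error and filled points where the adjusted p was at most 0.05. No WT point is filled and 8 KO points are, from Prkdc at -0.999 to Poll at 1.11. The test of the difference between the WT and KO points passed for Poll alone.

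Wider lists of repair genes were counted in the same way. Of the 40 tested genes in 4 lists, 19 (47.5%) passed between genotypes at 1000 cells and 9 (22.5%) at 100 cells, against the 41.5% and 34.2% of all genes given above. Among 7 tested other classical end-joining factors (8 listed, Dntt, the template-free polymerase of lymphocytes, being below the filter), the 1000 cell comparison called 1, lower in KO, and the 100 cell comparison 1, higher in KO. Among 10 tested genes of signalling and end protection around 53BP1, 3 were higher and 5 lower at 1000 cells, and 1 was lower at 100 cells. Among 9 genes of alternative end joining and resection, 2 were higher and 1 lower at 1000 cells, and 1 was higher and 1 lower at 100 cells. Among 14 genes of homologous recombination, 4 were higher and 3 lower at 1000 cells, and 4 higher and 1 lower at 100 cells.

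H2afx (chr9:44334694-44336077), which encodes the histone variant phosphorylated beside breaks, was lower in KO at both inputs. It was at 152.3 and 139.6 cpm in WT 1000 against 79.1 and 79.5 in KO 1000, and at 135.7 and 147.9 in WT 100 against 105.4 and 119.5 in KO 100 (log2 -0.88 ± 0.07, adjusted p = 4.31e-11, and log2 -0.38 ± 0.11, adjusted p = 0.0271). In GENCODE M21 a small RNA gene on the other strand covers 10.2% of its exon. Among homologous recombination genes, Brca2, a tumour suppressor of this pathway, was lower at both inputs (log2 -0.62 ± 0.07, adjusted p = 8.35e-09, and -0.44 ± 0.10, adjusted p = 0.0105). Rad51c, which acts in the same pathway, was higher (log2 0.48 ± 0.09, adjusted p = 4.79e-05, and 0.43 ± 0.12, adjusted p = 0.0219), as was Exo1, a resection nuclease that also lies on chromosome 1 (log2 0.37 ± 0.07, adjusted p = 5.33e-05, and 0.50 ± 0.10, adjusted p = 0.00633). The partners of Parp1 in single-strand break repair, Xrcc1 and Parp2, chosen here after their values were seen, passed in opposite directions at the inputs. Xrcc1 was lower in KO at 1000 cells (log2 -0.54 ± 0.11, adjusted p = 0.00031) and higher at 100 cells (log2 0.51 ± 0.15, adjusted p = 0.0289), and Parp2 was higher at 1000 cells (log2 0.22 ± 0.07, adjusted p = 0.0083) and lower at 100 cells (log2 -0.46 ± 0.10, adjusted p = 0.008).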

How the data were processed

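RNA was measured in 8 mESC libraries, in 4 groups of 2 set by genotype and number of cells. The deposited counts are whole numbers of fragments per Ensembl gene, to which the authors applied no normalisation. Per the study's methods, fragments of ribosomal RNA were removed, the rest were mapped to mm10 and counted without regard to strand, and those matching several genes or places were discarded, which lowers genes with close copies. The submitters' processing notes name CASAVA 1.8.2, Bowtie2 2.1.0, TopHat2 2.0.10 and HTSeq 0.6.1. Removal of PCR copies is not given in the sources used here. The 10 members and the wider lists were chosen with earlier results of these data known.

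A gene was tested if any library reached 10 counts. Each comparison was fitted on its own 4 libraries (the interaction on all 8) with the quasi-likelihood test of edgeR 4.0.16 (R 4.3.3) after TMM scaling, two-sided, with Benjamini-Hochberg adjustment over 16816 genes and a threshold of 0.05. Each fold change is given on the log2 scale with a standard error, which is its size divided by the square root of the F statistic. Levels are TMM-scaled cpm, per kb of the union of exons in GENCODE M21 (GRCm38) where genes are compared. The fitting steps were run on simulated data with the same spread in every library, so this run does not check calls where the spread differs between groups. Named genes are every member, Zbtb24 and, from each wider list, at most 3 that passed in the same direction at both inputs; Xrcc1 and Parp2 fall outside this rule and were chosen after their values were seen. Some items are not reported here. Library totals were 9666985 to 16686525 counts.

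Alternatives were DESeq2 size factors, total counts alone, the test of DESeq2 1.42.0, edgeR's exact test, 2 other filters on low counts, 1 fit of all 8 libraries, thinning to 9666985 counts, the replicate number as a block, and each library left out in turn. A block with the replicate numbers of the 100 cell libraries swapped was added after seeing the data.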

Additional observations from a re-analysis of the deposited data

Results flagged for a closer look

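By the interaction test of edgeR, the KO to WT ratio differed between 100 and 1000 cells in 1 of the 10 end-joining genes and in 9 of the 40 tested genes of the wider lists (22.5%), against 16.3% of all tested genes. Values follow for Poll and for the 3 of those 9 that are named above. Poll had a difference of 1.30 on the log2 scale (adjusted p = 0.00919), from -0.30 at 1000 cells to 0.97 at 100 cells. H2afx had a difference of 0.55 (adjusted p = 0.0154), with the same direction at both inputs. Xrcc1 had a difference of 1.08 (adjusted p = 0.00583) and Parp2 one of -0.64 (adjusted p = 0.00377), each with opposite directions at the inputs. All 4 involve the KO 100 libraries, whose myelin and astrocyte markers were raised, and the part of that in these differences was not tested. Groups of 2 libraries are too small for a check of single outlying samples.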

How the results depend on the processing

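Of the log2 ratios of the 10 genes under the alternatives, 618 kept their direction and their side of the threshold, 38 passed where they had not, 28 no longer passed and 16 turned direction. The number of genes called between genotypes at 100 cells was 6 in 1 fit of all 8 libraries and 1 to 8 when a library was left out. Between inputs in WT it was 1 in 1 fit of all 8 libraries, and 0 to 4 when a library was left out. Between inputs in KO it was 4 with the DESeq2 test, 4 in 1 fit of all 8 libraries, and 4 to 8 when a library was left out. For the interaction it was 2 with DESeq2 size factors, 2 with total counts alone, 2 with the DESeq2 test, 3 with all genes of at least 1 count, 2 with at least 10 counts in every library, and 0 to 5 when a library was left out. The causes were not tested.

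Ratios near 0 turned direction. With total counts alone, Xrcc6 was at -0.0628 and Nhej1 at -0.0544 (KO against WT, 1000 cells), and Xrcc4 was at 0.0392 after thinning (inputs, WT). Leaving out a library at 1000 cells gave -0.00912 to 0.237 for Xrcc4, -0.0175 to 0.0913 for Nhej1 and -0.545 to 0.0616 for Poll between genotypes. Between inputs in WT it gave -0.144 to 0.0698 for Xrcc4, -0.182 to 0.00569 for Xrcc5, -0.135 to 0.0262 for Nhej1 and -0.451 to 0.138 for Poll. Xrcc5 ranged from -0.0464 to 0.0852 between inputs in KO and from -0.0304 to 0.209 in the interaction.

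No label says that a replicate number marks a shared clone or day, so the libraries were taken to share only a number. Correlations of the replicate 1 to replicate 2 ratio, over genes averaging 10 cpm or more, were 0.157 between WT and KO at 1000 cells, 0.172 between WT and KO at 100 cells, -0.125 between inputs in WT and -0.038 between inputs in KO. With the replicate block 5 genes were called between genotypes at 1000 cells and 4 at 100 cells, 0 and 8 between inputs in WT and KO, and 1 in the interaction. The crossed replicate block, with numbers swapped at 100 cells since WT correlated at -0.125 between inputs, called 1 between inputs in WT and 2 in the interaction.

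Over all genes, the calls between genotypes at 100 cells ran from 2066 to 9551 as a library was left out (5756 with all), those between inputs in WT from 6 to 2631 (139 with all, and 10 to 676 under the other alternatives), and those of the interaction from 727 to 5633 (2745 with all). DESeq2 called 5641 between inputs in KO against 8753. Using all tested genes, the chromosome 1 median was 0.46 at 1000 and 0.44 at 100 cells. With 2 libraries a group, the lone library left after an omission is assumed to vary like the other group.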
